A study of Mus musculus with 20 samples.

Results

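The 10 genes of nicotinamide adenine dinucleotide (NAD) synthesis and salvage followed in these mouse hearts were Nmrk2, Nmrk1, Nampt, Naprt, Nadsyn1, Nmnat1, Nmnat2, Nmnat3, Nnmt and Nadk. They were taken as every array probe named for them or for an older synonym, such as Itgb1bp3 for Nmrk2 and Pbef1 for Nampt, which gave 14 probes for 10 genes out of 41174 probes for 27670 gene names. Of these, 9 genes entered the tests among 14556 tested genes, and Nmnat2 did not. The set was chosen by the log2 ratios of Nmrk2 in these same hearts, where its fenofibrate values had already been seen, so its differences between fenofibrate and chow, between 3 and 8 weeks and between the responses of the genotypes are described here and carry no test. Only its differences between genotypes at the same diet were tested.

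Each of the 20 arrays held RNA of 1 heart against a common reference of pooled whole newborn C57BL/6 pups. The mice were MuRF1 +/+ or MuRF1 -/-, the latter without the muscle ubiquitin ligase MuRF1 that the gene Trim63 encodes, and the hearts are described as strain-matched without the strain being named. They ate chow (3 hearts per genotype, labelled 8 weeks) or chow with 0.05% (w/w) fenofibrate for 3 weeks (4 hearts per genotype) or 8 weeks (3 hearts per genotype). The series text gives 3 to 8 weeks as the age of the mice, while in the labels weeks belong to the diet, so the 3-week hearts have no chow control of their own duration. The series addresses what MuRF1 does in the heart growth seen with fenofibrate, a lipid-lowering agonist of the nuclear receptor PPAR alpha. The labels say nothing more of the MuRF1 allele.

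NAD carries electrons in fuel oxidation and is consumed by sirtuins, PARP enzymes and CD38, so cells rebuild it without pause. Most is remade from nicotinamide, which NAMPT turns into nicotinamide mononucleotide. The kinases NMRK1 and NMRK2 make the same mononucleotide from nicotinamide riboside, NAPRT starts a separate route from nicotinic acid that ends at NADSYN1, and the NMNAT enzymes join the mononucleotides to ATP to give the dinucleotide. NMRK1 is found in most tissues, whereas NMRK2 is the muscle form. In mice, Nmrk2 is known for rising in hearts under energy stress. NNMT methylates nicotinamide and so draws it away from salvage, and NADK phosphorylates NAD to NADP.

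The start regions of both riboside kinases are shown because the measured ratio of Nmrk2 varied widely in these hearts. That of Nmrk1, read near background, did not. They are the 250 bases before the annotated start in RefSeq of mouse assembly GRCm38.p6, Nmrk2 at chr10:81202038-81202287 on the minus strand and Nmrk1 at chr19:18631766-18632015 on the plus strand, each 5′ to 3′ on the gene's strand. Capitals mark the motif matches.
Nmrk2: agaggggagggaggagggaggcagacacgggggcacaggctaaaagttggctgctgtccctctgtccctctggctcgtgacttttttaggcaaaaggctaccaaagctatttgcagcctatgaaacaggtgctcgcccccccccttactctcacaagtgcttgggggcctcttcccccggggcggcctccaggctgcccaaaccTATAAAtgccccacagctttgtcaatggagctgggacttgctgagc
Nmrk1: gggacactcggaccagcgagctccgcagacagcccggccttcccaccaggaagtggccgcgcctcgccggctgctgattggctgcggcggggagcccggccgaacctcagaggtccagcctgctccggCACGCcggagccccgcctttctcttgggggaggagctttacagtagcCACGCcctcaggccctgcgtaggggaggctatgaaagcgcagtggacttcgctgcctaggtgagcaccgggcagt
The capitals in Nmrk2 are a TATAAA that begins 46 bases before the start. A TATAAA occurs on either strand in 13.6% of all 32851 windows of 300 bases (250 before and 50 after a start). This motif was added after the sequence had been seen. Nmrk1 holds no TATAAA. Its capitals are 2 copies of CACGC, which is GCGTG, the core of the xenobiotic response element, on the other strand, and GCGTG occurs in 32.4% of all windows. The guanine and cytosine share was 58.8% in Nmrk2 and 69.2% in Nmrk1. RefSeq windows were at hand for 8 of the 10 genes (10 windows). None of the 10 held the direct repeat bound by PPAR with RXR, AGGTCA and AGGTCA with 1 base between them, on either strand, as was the case for all but 0.0396% of windows. The E-box CACGTG, found in 7.15% of all windows, was present in 1 of the 2 Nadk windows. GCGTG was also present in the windows of Nampt, Nmnat3 and, again, 1 of the 2 of Nadk. A match is a string of letters and not a site, and its absence says nothing of the factor.

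Heart tissue was checked first. The 6 ventricular cardiomyocyte markers (Myh6, Myl2, Tnni3, Tnnt2, Actn2 and Ryr2) averaged 2.38 to 3.26 on the log2 scale above the pup reference on every array. Trim63 lay between -1.19 and -0.49 in the 10 MuRF1 -/- hearts and between 0.79 and 2.85 in the 10 MuRF1 +/+ hearts. The share of probes whose heart signal was well above background ran from 34.0% to 51.9%. Replicate 2 of the MuRF1 +/+ 8-week group and replicate 4 of the MuRF1 -/- 3-week group stood apart from the rest on the first 2 principal components (43.9% and 22.1% of the variance). These 2 arrays also had the lowest shares above background, 34.0% and 34.3%. The first of them gave the Trim63 value of 0.79. Sex-linked transcripts differed with diet. The Y-linked pair Ddx3y and Eif2s3y rose above background together in all 6 chow hearts. On fenofibrate it did so in none of the 7 MuRF1 +/+ hearts, in 0 of 4 MuRF1 -/- hearts after 3 weeks and in 2 of 3 after 8 weeks. The X-linked transcript Xist averaged -4.06 on chow, -0.29 at 3 weeks and -1.88 at 8 weeks in MuRF1 +/+ hearts. In MuRF1 -/- hearts its means were -3.85, 0.01 and -3.43. Sex is not given in the labels.

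Nmrk2, the muscle riboside kinase, was far lower in every heart on fenofibrate than in any chow heart, in both genotypes and already at 3 weeks. This holds for the processing used here, and 1 MuRF1 -/- chow heart lost the separation under other processing, as given below. In MuRF1 +/+ hearts its log2 ratio to the reference was 2.89, 3.87 and 3.34 on chow. It was 1.29, 1.07, 1.26 and 0.90 after 3 weeks of fenofibrate, and 0.71, 0.32 and 1.32 after 8 weeks. No fenofibrate heart of this genotype reached the lowest chow heart, and the 3-week and 8-week hearts overlapped. Hearts without MuRF1 read 4.00, 2.92 and 4.42 on chow, 1.99, 2.03, 1.69 and 0.97 after 3 weeks, and 1.22, 0.49 and 1.13 after 8 weeks. The same separation held, with replicate 2 of the chow group the lowest chow heart of that genotype and replicate 4 the lowest 3-week heart.

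**Figure D1:**
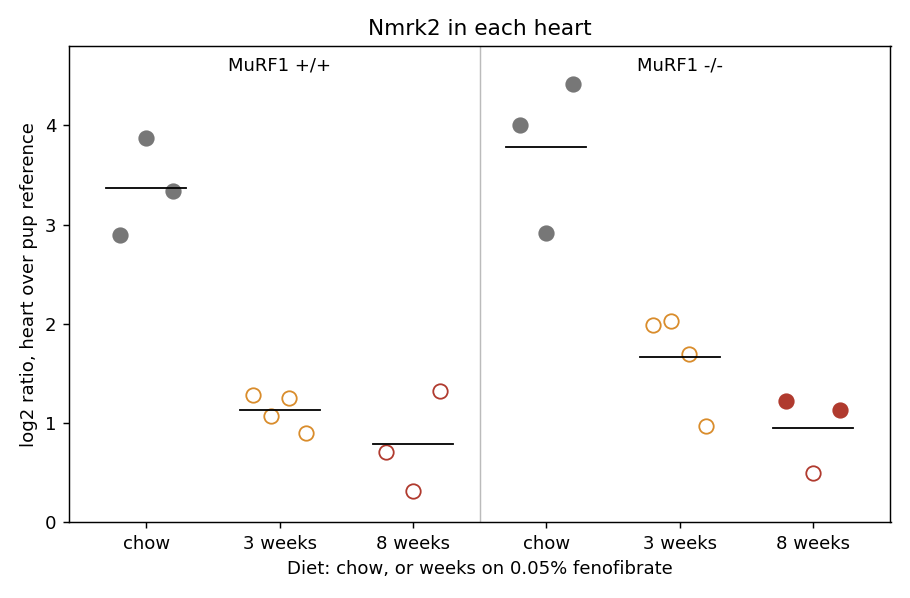
Log2 ratio of Nmrk2 in heart RNA over the pup reference (vertical axis) for each of the 20 hearts, by genotype and diet (horizontal axis). Lines are group means, filled points have the Y-linked pair Ddx3y and Eif2s3y above background, and open points do not. The 6 chow hearts lie between 2.89 and 4.42 and the 14 fenofibrate hearts between 0.32 and 2.03.

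The group means of Nmrk2 in MuRF1 +/+ hearts were 3.37 ± 0.49 (SD, n = 3) without fenofibrate, 1.13 ± 0.18 (n = 4) after 3 weeks and 0.78 ± 0.51 (n = 3) after 8 weeks. The MuRF1 -/- means were 3.78 ± 0.78 (n = 3), 1.67 ± 0.49 (n = 4) and 0.95 ± 0.40 (n = 3). The log2 difference from chow was -2.24 ± 0.33 (SE) at 3 weeks and -2.59 ± 0.36 at 8 weeks in MuRF1 +/+, or 4.72-fold and 6.00-fold lower. The MuRF1 -/- differences were -2.11 ± 0.33 and -2.83 ± 0.36, or 4.31-fold and 7.11-fold lower. Both differences within a genotype share its chow hearts. In descending order the means were MuRF1 -/- chow, MuRF1 +/+ chow, MuRF1 -/- at 3 weeks, MuRF1 +/+ at 3 weeks, MuRF1 -/- at 8 weeks and MuRF1 +/+ at 8 weeks. In that order the chow and fenofibrate groups were apart, and all other neighbours overlapped. From 3 to 8 weeks the difference was -0.35 ± 0.33 in MuRF1 +/+ and -0.72 ± 0.33 in MuRF1 -/-. The 6 group means of Nmrk2 spanned 3.00 log2 units, rank 16 of the 14556 tested genes, against a span of 0.36 for the median gene. Because the set was chosen by these same values, a high rank was given by the choice and is no separate result. These are bulk hearts, in which fewer cells of a type and less RNA per cell cannot be told apart.

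Within slides, where arrays were scanned together, the Nmrk2 difference at 3 weeks was -2.80 to -1.61 in MuRF1 +/+ (2 slides) and -2.73 to -0.88 in MuRF1 -/- (3 slides). At 8 weeks it was -3.16 to -3.02 in MuRF1 +/+ (2 slides) and -2.42 in MuRF1 -/- (1 slide). Processing bore most on 1 heart, the second MuRF1 -/- replicate on chow, whose array had 6 spots with local background far above their signal that were left out of the background fit. With them in the fit, Nmrk2 on that array was 1.30 in place of 2.92, inside the range of the 3-week hearts, and the MuRF1 -/- differences were -1.57 at 3 weeks and -2.29 at 8 weeks. In the authors' deposited log2 table Nmrk2 on that array was 1.40, and the other 2 chow hearts of the group read 4.59 and 4.87. There 1.40 lay below every MuRF1 -/- 3-week heart (1.58 to 2.61) and within the 8-week hearts (0.83 to 1.75). By Agilent's own ratio the array read 4.32 and the other 2 chow hearts 5.30 and 5.32, all above the 3-week hearts (2.42 to 3.38). The separation of every MuRF1 -/- chow heart from fenofibrate thus depends on the processing of this array.

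The sex-linked difference ran along with the diet contrast except in MuRF1 -/- hearts at 8 weeks. There, replicates 1 and 3 had the Y-linked pair above background like the chow hearts, and Nmrk2 was 1.22 and 1.13, below the lowest chow value of 2.92. With Y-linked level as a covariate the Nmrk2 differences were -1.82 and -2.18 in MuRF1 +/+ and -1.70 and -2.71 in MuRF1 -/- at 3 and 8 weeks. That fit uses a common slope for all groups, and the level varied most within the MuRF1 -/- 8-week group. The fit therefore cannot separate Y-linked level from diet in MuRF1 +/+ hearts or at 3 weeks in MuRF1 -/- hearts, here and below. Some marker lists of other cell types moved as well. Others moved less, such as 6 skeletal muscle genes, with group means of -2.57 to -2.26. Averaged on the log2 scale, 7 endothelial genes gave 0.10 to 0.17 in MuRF1 +/+ chow hearts, 0.33 to 0.66 after 3 weeks and 0.40 to 1.27 after 8 weeks, where 1.27 is the 8-week replicate that stood apart. The MuRF1 -/- hearts gave 0.07 to 0.25, 0.36 to 0.75 and 0.05 to 0.20 in the same order. A list of 5 atrial genes averaged -2.46 to -2.33 on chow, -1.91 to -1.66 after 3 weeks and -2.41 to -1.64 after 8 weeks in MuRF1 +/+, against -2.59 to -2.29, -2.31 to -1.02 and -2.48 to -2.17 in MuRF1 -/-. For 7 fibroblast genes the mean was -3.50 to -3.35, -2.94 to -2.54 and -3.45 to -2.19 in MuRF1 +/+, and -3.58 to -2.98, -2.98 to -2.38 and -4.13 to -3.58 in MuRF1 -/-. The arrays that stood apart gave the atrial -1.64 and -1.02 and the fibroblast -2.19 and -2.38. Without its array that stood apart, the MuRF1 -/- 3-week atrial means were -2.31 to -1.93. The part of these lists in the fall of Nmrk2 was not tested.

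Loss of MuRF1 made no difference to Nmrk2 that passed a test. MuRF1 -/- minus MuRF1 +/+ was 0.41 ± 0.36 (SE) on chow (95% interval -0.34 to 1.16, limma adjusted p = 1), 0.54 ± 0.31 at 3 weeks (-0.11 to 1.19, adjusted p = 0.999) and 0.17 ± 0.36 at 8 weeks (-0.58 to 0.91, adjusted p = 0.809). Averaged over diets it was 0.37 ± 0.20 (-0.04 to 0.79, adjusted p = 0.834). The chow difference was -0.13 with all spots in the background fit. Within slides it was 1.08 and 1.11 on chow (2 slides with 1 heart of each genotype), 0.07 to 0.78 at 3 weeks (3 slides) and -0.19 to 0.51 at 8 weeks (2 slides). The chow value is thus over 1 log2 unit on both slides that allow it. Neither slide holds replicate 2 of either chow group, the lowest MuRF1 -/- chow heart (2.92) and the highest MuRF1 +/+ chow heart (3.87). The response to fenofibrate differed between genotypes by 0.13 ± 0.47 (SE) at 3 weeks and by -0.24 ± 0.50 at 8 weeks, as a description.

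Nmrk1, the general riboside kinase, hardly varied in its measured ratio. Its probe was dim, well above background on 16 of 20 arrays and on 1 of 3 in MuRF1 +/+ at 8 weeks. The median log2 heart signal was 6.21, against 5.83 and 5.80 for the Nmnat2 probes that never rose above background. So near the floor, narrow ranges and intervals need not mean a steady level. All values lay between -0.05 and 0.20. The fenofibrate differences were between -0.07 and 0.05, their 95% intervals all lay between -0.23 and 0.21, and 95.1% of tested genes had a larger span of group means. Across the 20 arrays, which share slides and reference, the correlation of Nmrk1 with Nmrk2 was -0.01 (Pearson r).

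At 3 weeks of fenofibrate in MuRF1 +/+ hearts, 2 of the 8 other tested genes passed the limma test at an adjusted p of 0.05, where 24.5% of all tested genes did. Nmnat1, the nuclear adenylyltransferase, fell from 1.87, 1.69 and 1.89 on chow to 1.24, 1.50, 1.35 and 1.47, with no overlap (log2 -0.43 ± 0.13, adjusted p = 0.0233). Nadk, the cytosolic NAD kinase, rose from -0.67, -0.61 and -0.69 to -0.32, -0.49, -0.46 and -0.30, again with no overlap (0.27 ± 0.08, adjusted p = 0.0286). A share of 2 in 8 is close to the background. The groups did not overlap for 4 of the 8 genes, against 45.4% of all tested genes. A second Nmnat1 probe also passed in a fit of all 20840 probes (-0.40 ± 0.14, adjusted p = 0.0353), and both calls were lost with the Y-linked covariate, at differences of -0.29 for Nmnat1 (adjusted p = 0.487) and 0.25 for Nadk (0.360). They were also lost with all spots in the background fit, by Agilent's ratio and in the authors' deposited table, at -0.43 to -0.36 for Nmnat1 (adjusted p = 0.0937 to 0.249) and 0.23 to 0.28 for Nadk (0.0682 to 0.260). The Nmnat1 call was also lost without 3-week replicate 1 (adjusted p = 0.0686) or 3 (0.0514) and without chow replicate 1 (0.0827) or 3 (0.0964). The Nadk call was lost without 3-week replicate 1 (0.0734) or 4 (0.0837) and without chow replicate 1 (0.0855) or 3 (0.103).

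At 3 weeks in MuRF1 -/- hearts, 1 of the 8 passed, against 26.4% of all genes. Nadk was -0.56, -0.63 and -0.85 on chow and -0.38, -0.53, -0.34 and -0.50 at 3 weeks, higher in all 4 hearts than in any chow heart (0.24 ± 0.08, adjusted p = 0.0403). It was the 1 gene of the 8 whose groups did not overlap, against 32% of all genes. This call was lost without 3-week replicate 1 (adjusted p = 0.0923) or 3 (0.0992), MuRF1 -/- chow replicate 2 (0.0655) or 3 (0.237) or MuRF1 +/+ chow replicate 1 (0.0505), and with the Y-linked covariate (0.23, adjusted p = 0.427). In all it was lost under 8 of the 13 other settings, over which the difference was 0.16 to 0.26, the lowest with all spots in the background fit (adjusted p = 0.280). Nmnat1 differed by -0.34 ± 0.13 and did not pass (adjusted p = 0.0609). Its second probe differed by -0.05 ± 0.14.

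At 8 weeks none of the 8 passed in either genotype, against 14.8% of genes in MuRF1 +/+ and 2.23% in MuRF1 -/-. The groups did not overlap for 3 of the 8 in each genotype, against 29.6% and 24.8% of all genes. The share of all genes with an unadjusted limma p under 0.05 was not worked out, so such counts here and below name genes only. In each genotype 2 of the 8 had such a p. In MuRF1 +/+ these were Nmnat1 (-0.39 ± 0.14, adjusted p = 0.0631) and Nmnat3, the mitochondrial adenylyltransferase (-0.63 ± 0.23, adjusted p = 0.0759). The second Nmnat1 probe passed there in the fit of all probes (-0.49 ± 0.14, adjusted p = 0.0323). Nmnat3 was 1.26, 1.15 and 1.53 on chow and 1.03, 0.0012 and 1.03 at 8 weeks, so the array that stood apart gave the lowest value. Without it the Nmnat3 difference was -0.28 ± 0.19 (adjusted p = 0.441), while that of Nmnat1 was -0.52 ± 0.14 and passed (adjusted p = 0.0323). Those in MuRF1 -/- were Nampt, the salvage enzyme for nicotinamide (0.70 ± 0.28, adjusted p = 0.255), and Nadsyn1, NAD synthetase (0.20 ± 0.08, adjusted p = 0.231).

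**Figure D2:**
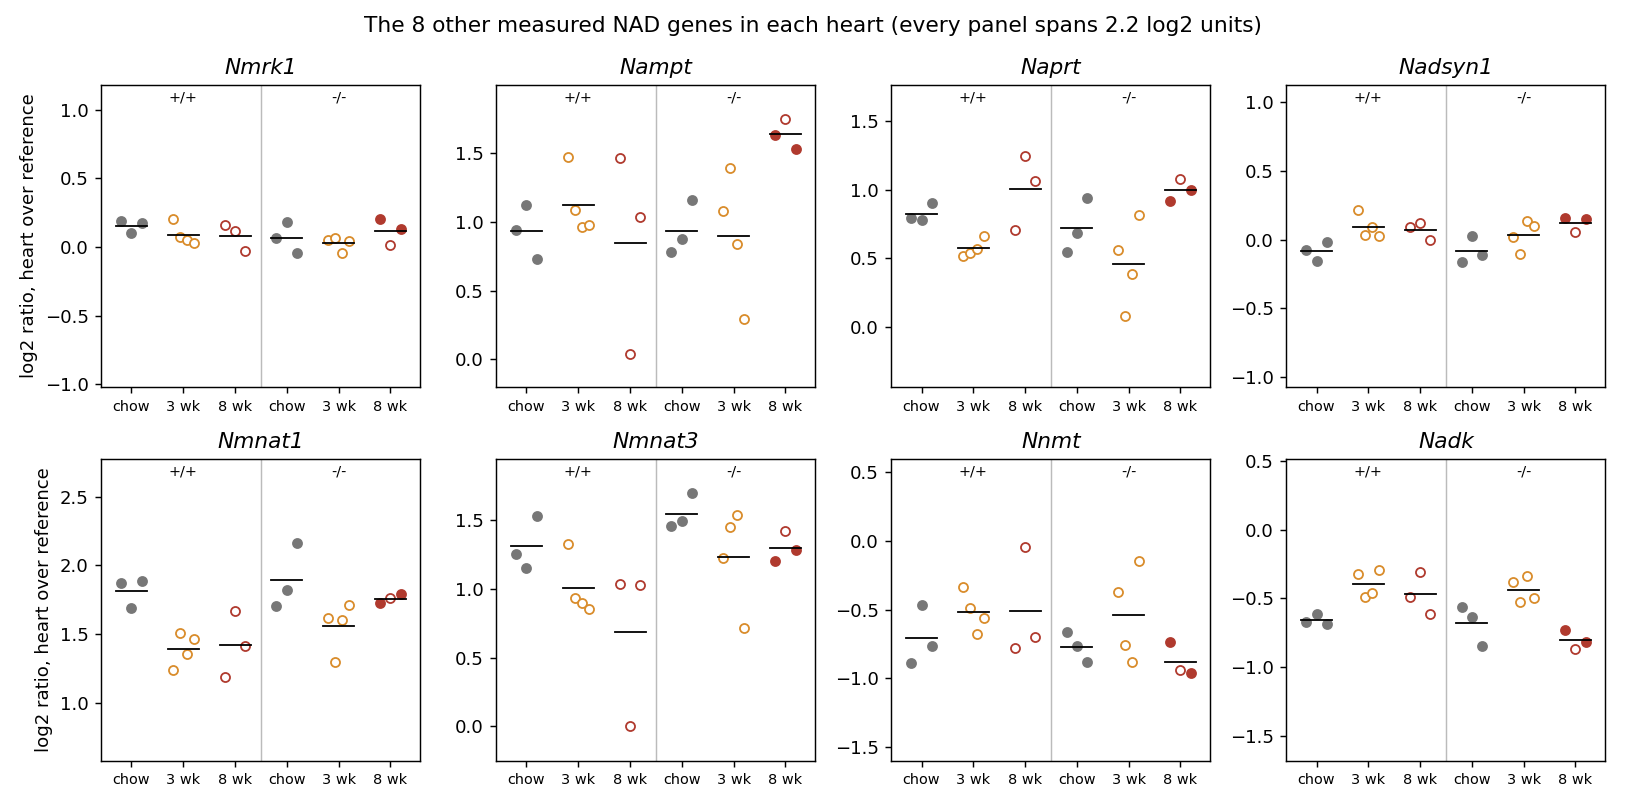
Log2 ratio of heart over pup reference (vertical axis) in each of the 20 hearts for the 8 other tested genes, by genotype and diet (horizontal axis), each panel spanning 2.2 log2 units around its own centre. Lines are group means, and filled points have the Y-linked pair above background. Nampt in the 3 MuRF1 -/- hearts at 8 weeks (1.53 to 1.75) lies above every other heart by the tested probe drawn here. Its second probe, not drawn, gave 0.58 to 1.23 there and 0.40 to 0.81 in MuRF1 +/+ at 8 weeks.

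Between 3 and 8 weeks of fenofibrate in MuRF1 -/- hearts, 3 of the 8 genes passed, against 31.5% of all genes. Nampt rose from 1.08, 1.39, 0.84 and 0.29 to 1.63, 1.75 and 1.53 (0.74 ± 0.26, adjusted p = 0.0403), and its second probe, which correlated with the first at 0.40 over the arrays, rose too (0.50 ± 0.14, adjusted p = 0.0114 in the fit of all probes). Naprt, which takes in nicotinic acid, rose from 0.56, 0.08, 0.39 and 0.82 to 0.92, 1.07 and 1.00 (0.54 ± 0.14, adjusted p = 0.00762). Nadk fell from -0.38, -0.53, -0.34 and -0.50 to -0.73, -0.87 and -0.82 (-0.37 ± 0.08, adjusted p = 0.0031), where the chow hearts of this genotype lay between -0.85 and -0.56. These 3 and 1 more of the 8 did not overlap between the groups, against 39.8% of all genes. The groups also differ in Y-linked transcripts (0 of 4 hearts against 2 of 3), and with that level as a covariate all 3 calls were lost at differences of 1.05, 0.42 and -0.36 (adjusted p = 0.0689, 0.187 and 0.0647). The Nampt call was also lost without 3-week replicate 3 (adjusted p = 0.0743) or 4 (0.113) or without 8-week replicate 1 (0.0898), 2 (0.119) or 3 (0.0742). Of the 13 other settings, 6 ended it, with differences of 0.61 to 1.05 and adjusted p of 0.0542 to 0.111. Over the same interval the fibroblast list went from -2.98 to -2.38 down to -4.13 to -3.58 (4 of its 7 genes called lower) and the endothelial list from 0.36 to 0.75 down to 0.05 to 0.20 (3 of 7), and their part was not tested.

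In MuRF1 +/+ hearts over the same interval 1 of the 8 passed, against 17.7% of genes. Naprt rose from 0.52, 0.54, 0.57 and 0.66 to 0.71, 1.24 and 1.06 (0.43 ± 0.14, adjusted p = 0.0417). The call was lost on leaving out 13 of the 20 arrays in turn, with an adjusted p of 0.159 and a difference of 0.31 without 8-week replicate 2, which stood apart. It was also the 1 gene of the 8 without overlap, against 24.4% of all genes. Nampt in MuRF1 +/+ was 1.47, 0.04 and 1.03 at 8 weeks, on both sides of its 3-week values of 0.96 to 1.48.

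Between genotypes none of the 8 genes passed on chow (0.0893% of genes did), at 3 weeks (0.405%), at 8 weeks (0.357%) or averaged over diets (0.192%). The numbers with an unadjusted limma p under 0.05 were 0, 0, 4 and 3 of the 8, with no share of all genes to set beside them. The 4 at 8 weeks were Nadk (-0.34 ± 0.09, adjusted p = 0.0797), Nampt (0.79 ± 0.28, adjusted p = 0.13), Nmnat3 (0.61 ± 0.23, adjusted p = 0.147) and Nmnat1 (0.34 ± 0.14, adjusted p = 0.173), and in these the 3 MuRF1 -/- hearts did not overlap the 3 MuRF1 +/+ hearts. Groups did not overlap for 19.4% of all tested genes there. The second Nampt probe did overlap, at 0.58 to 1.23 in MuRF1 -/- and 0.40 to 0.81 in MuRF1 +/+. The second Nmnat1 probe did not, at 1.43 to 1.81 and 0.99 to 1.14. Without 8-week MuRF1 +/+ replicate 2, the array that stood apart, these differences were -0.25 for Nadk, 0.39 for Nampt, 0.27 for Nmnat3 and 0.46 for Nmnat1 (adjusted p = 0.396, 0.689, 0.761 and 0.276). On chow and at 3 weeks 0 of the 8 were free of overlap, against 12.3% and 4.29% of genes. Nadk and Nmnat1 lie on the chromosome of Trim63, chromosome 4, with 195 and 144 positions in the order of tested genes between each and Trim63. Neither response difference between genotypes gave a call among the 8 genes or among all genes (0% at 3 and at 8 weeks), with 0 and 1 of the 8 under an unadjusted p of 0.05.

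**Figure D3:**
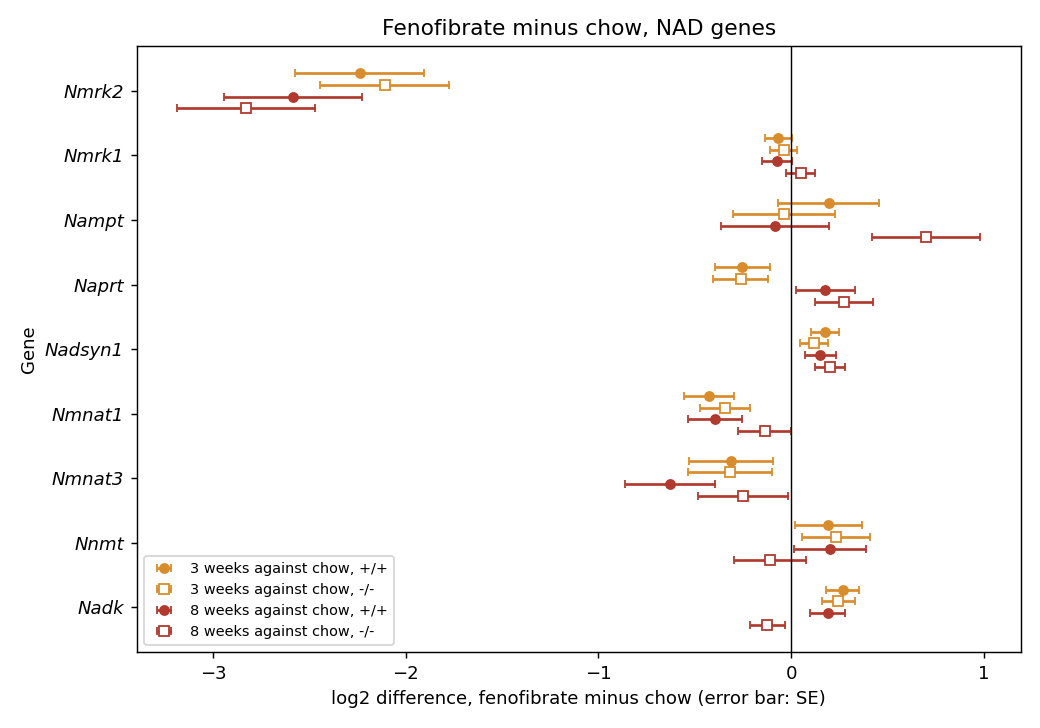
Log2 difference of fenofibrate minus chow (horizontal axis, error bars SE) for the 9 tested NAD genes (vertical axis) at 3 weeks (orange) and 8 weeks (red) in MuRF1 +/+ (filled circles) and MuRF1 -/- (open squares). Nmrk2 lies at -2.83 to -2.11, and all other genes lie between -0.63 and 0.70.

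Nnmt, which methylates nicotinamide, passed in no comparison. Its values ran from -0.96 to -0.04, and its highest value came from the 8-week MuRF1 +/+ array that stood apart. Nadsyn1 ran from -0.16 to 0.22 and its 2 probes correlated at 0.63. Both Nmnat2 probes were not well above background on any of the 20 arrays. Their ratios, -0.17 to 0.12, are therefore not read as levels. Among the pairs of tested members, the r of Nmrk2 over the 20 arrays was highest with Nmnat3 (0.60) and most negative with Nadsyn1 (-0.77). After removing group means these were 0.45 and -0.44, and the r with Nampt was higher (0.51, against -0.09 over the 20 arrays).

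The 3 PPAR alpha target genes that were checked passed against chow at 8 weeks only. Pdk4, which restrains pyruvate oxidation, went in MuRF1 +/+ hearts from -0.82 ± 0.21 (SD, n = 3) without fenofibrate through -0.34 ± 0.31 (n = 4) after 3 weeks to 2.00 ± 0.84 (n = 3) after 8 weeks. The MuRF1 -/- values were -0.48 ± 0.29, -0.42 ± 0.44 and 1.92 ± 0.65. The rise passed at 8 weeks (2.83 ± 0.35 SE, adjusted p = 9.6e-05 in MuRF1 +/+ and 2.40 ± 0.35, adjusted p = 0.0011 in MuRF1 -/-) and did not at 3 weeks (0.48 ± 0.33, adjusted p = 0.318 and 0.06 ± 0.33, adjusted p = 0.919). Acot1, a peroxisome proliferator-induced thioesterase, differed by 0.26 ± 0.36 and -0.65 ± 0.36 at 3 weeks without passing and rose by 2.62 ± 0.39 and 1.75 ± 0.39 at 8 weeks (adjusted p = 0.000433 and 0.0219). Angptl4, which blocks lipoprotein lipase, rose at 8 weeks in MuRF1 +/+ (1.64 ± 0.37, adjusted p = 0.00739) and did not pass in MuRF1 -/- (1.07 ± 0.37, adjusted p = 0.155). Acot1 has near-identical family members whose transcripts can share its probe. Nmrk2 stood at 1.13 and 1.67 after 3 weeks, when none of the 3 had passed. A link between Nmrk2 and PPAR alpha was not tested.

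**Figure D4:**
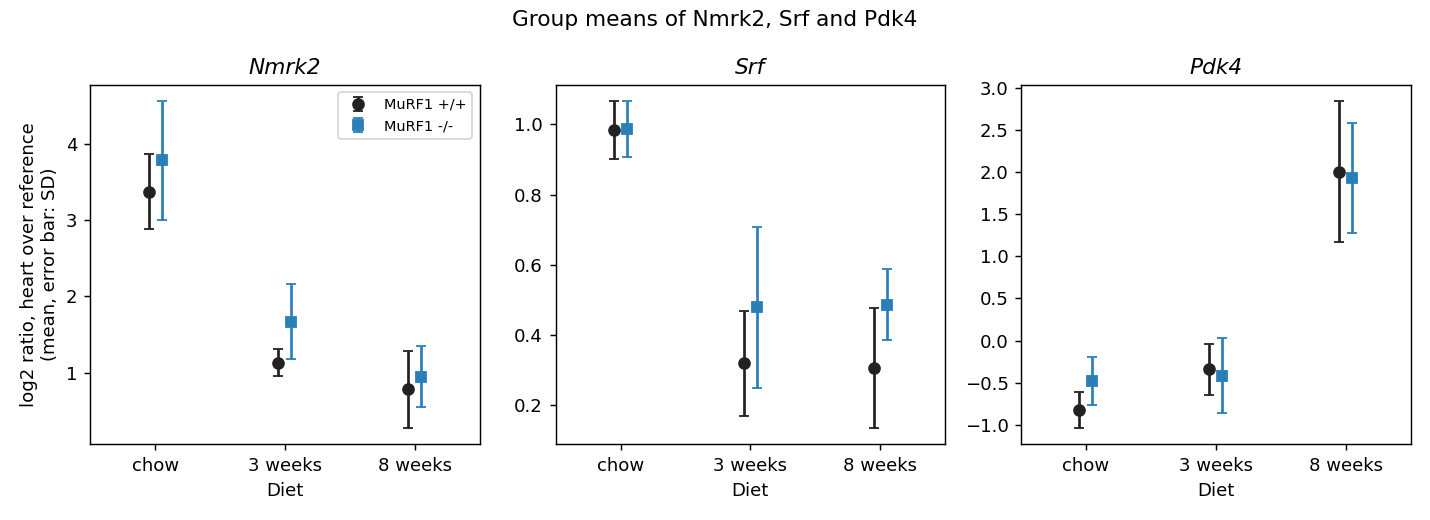
Group means (error bars SD, n = 3 or 4) of the log2 ratio of heart over pup reference (vertical axes, a scale of its own in each panel) for Nmrk2, Srf and Pdk4, by diet (horizontal axis) and genotype (circles MuRF1 +/+, squares MuRF1 -/-). Nmrk2 and Srf are lower at both 3 and 8 weeks, and Pdk4 is high at 8 weeks, at 2.00 and 1.92.

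The genes most like Nmrk2 were sought among 12402 tested genes with a current name, by Pearson r over the 20 arrays, as a description of arrays that share groups, slides and reference. The 5 highest were Paqr7, a membrane progestin receptor (0.92), Ccn5, a matricellular protein (0.91), Mfap3l (0.89), Chid1 (0.88) and Gemin7, of the SMN complex (0.88). The 5 lowest were Ccdc181 (-0.90), Bclaf1 (-0.89), Exoc3l4 (-0.89), Gnl2 (-0.88) and Appl1 (-0.86). Within the 14 fenofibrate hearts the r of the first 5 fell to between 0.10 (Gemin7) and 0.68 (Paqr7), so that much of the likeness is the shared step between chow and fenofibrate. Paqr7 was 1.18 to 1.38 and 1.18 to 1.25 in the chow hearts of MuRF1 +/+ and MuRF1 -/-, 0.24 to 0.61 and 0.08 to 0.66 at 3 weeks, and -0.22 to 0.36 and 0.32 to 0.44 at 8 weeks. Srf, serum response factor, which drives muscle structural genes, came at rank 12 with 0.86. It was shown in the plot after its rank was seen.

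Genes around the pathway were taken from 5 lists, which together held 69 tested genes. Of the 69, 14 were called at 3 weeks in MuRF1 +/+ (20.3%, against 24.5% of all genes), 17 at 3 weeks in MuRF1 -/- (24.6%, against 26.4%), 19 at 8 weeks in MuRF1 +/+ (27.5%, against 14.8%) and 2 at 8 weeks in MuRF1 -/- (2.9%, against 2.23%). The shares at 3 weeks and at 8 weeks in MuRF1 -/- were near those of all genes, so the calls below describe single genes and not the lists. Among 17 tested regulators and energy sensors, 1 rose and 3 fell at 3 weeks in MuRF1 +/+, and 0 and 4 in MuRF1 -/-. At 8 weeks 2 rose and 3 fell in MuRF1 +/+, and 0 and 2 in MuRF1 -/-. Srf fell in all 4 comparisons, by 0.67 ± 0.11 and 0.68 ± 0.12 on the log2 scale at 3 and 8 weeks in MuRF1 +/+ (adjusted p = 0.00044 and 0.0018) and by 0.51 ± 0.11 and 0.50 ± 0.12 in MuRF1 -/- (adjusted p = 0.0032 and 0.036). Its fall and its likeness to Nmrk2 come from the same arrays, so neither supports the other. Ppargc1b, the coactivator PGC-1 beta, fell at 8 weeks, by 0.87 ± 0.10 in MuRF1 +/+ and 0.67 ± 0.10 in MuRF1 -/- (adjusted p = 4.7e-05 and 0.0012), and was lower at 8 than at 3 weeks in both (-0.78 ± 0.09 and -0.63 ± 0.09, adjusted p = 4.2e-05 and 9.3e-05). Esrra, a nuclear receptor that works with those coactivators, fell at 3 weeks in both genotypes (-0.72 ± 0.16 and -0.75 ± 0.16) and at 8 weeks in MuRF1 +/+ (-0.66 ± 0.17). Prkab1, a subunit of AMP-activated kinase, fell at 3 weeks in both (-0.44 ± 0.13 and -0.53 ± 0.13). The other calls against chow were Clock (0.29) at 3 weeks and Arntl (0.49) and Pparg (0.57) at 8 weeks in MuRF1 +/+, and Nr1d1 (-0.73) at 3 weeks in MuRF1 -/-. The list medians were -0.03, -0.07, -0.31 and -0.09 at 3 weeks in MuRF1 +/+ and -/- and at 8 weeks in MuRF1 +/+ and -/-, and those of all genes 0.01, -0.01, 0.03 and -0.01. The 8-week MuRF1 +/+ calls leaned on replicate 2, the array that stood apart. Without it the calls there went from 5 to 3 for the regulators (median -0.14), from 5 to 1 for NAD consumers (0.04), from 5 to 3 for transport (-0.15), from 3 to 1 for redox exchange (-0.07) and from 1 to 0 for de novo synthesis (-0.06). Of the genes named at that time Srf, Ppargc1b, Arntl, Sirt5, Nt5e, Slc29a2 and Slc25a12 passed without it, and Esrra, Pparg, Sirt1, Sirt3, Sirt4, Parp3, Slc25a51, Nt5c, Nt5c2, Slc25a11, Mthfd2 and Kyat1 did not.

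Among 18 tested NAD-consuming enzymes the calls went both ways. At 3 weeks 2 rose and 2 fell in MuRF1 +/+ and 4 rose and 1 fell in MuRF1 -/-. Parp14, a mono-ADP-ribosyltransferase, rose in both (0.67 ± 0.16 and 0.89 ± 0.16, adjusted p = 0.0045 and 0.00051), as did the nuclear deacylase Sirt7 (0.32 and 0.43), while Parp3 fell in both (-0.42 and -0.35). Cd38, an NAD glycohydrolase, rose at 3 weeks in MuRF1 -/- (0.48 ± 0.11, adjusted p = 0.0036), as did Parp9 (0.43), and Parp1 fell in MuRF1 +/+ (-0.35). At 8 weeks in MuRF1 +/+ the mitochondrial sirtuins Sirt3 (-0.63 ± 0.18), Sirt4 (-0.36 ± 0.10) and Sirt5 (-0.84 ± 0.17) fell (adjusted p = 0.030, 0.020 and 0.0035), Parp3 fell (-0.33) and Sirt1 rose (0.50 ± 0.16, adjusted p = 0.043). None (0) of the 18 passed at 8 weeks in MuRF1 -/-. List medians were 0.01, 0.12, 0.10 and 0.05 in the order used above.

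Of 10 tested genes of precursor transport and release, 2 rose and 2 fell at 3 weeks in MuRF1 +/+, 1 and 2 in MuRF1 -/-, 2 and 3 at 8 weeks in MuRF1 +/+, and none in MuRF1 -/-. Slc25a51, the mitochondrial NAD carrier, fell at 3 weeks in MuRF1 +/+ (-0.55 ± 0.16) and MuRF1 -/- (-0.57 ± 0.16) and at 8 weeks in MuRF1 +/+ (-0.56 ± 0.17), with adjusted p = 0.016, 0.012 and 0.031. Nt5c, a cytosolic nucleotidase, rose in the same 3 comparisons (0.49, 0.56 and 0.47) and Nt5c2 fell in them (-0.31, -0.24 and -0.31). Nt5e, the surface 5′-nucleotidase CD73, rose at 8 weeks in MuRF1 +/+ (0.91 ± 0.17, adjusted p = 0.0022), the nucleoside transporter Slc29a2 fell there (-0.61) and Slc29a1 rose at 3 weeks (0.29). Nt5c was the only pathway gene called between genotypes, lower at 8 weeks in MuRF1 -/- (-0.66 ± 0.14, adjusted p = 0.049), and not without the array that stood apart (-0.44, adjusted p = 0.124). List medians were -0.04, 0.04, -0.16 and -0.04.

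Of 20 tested genes of NADP formation and redox exchange, 0 rose and 1 fell at 3 weeks in MuRF1 +/+, 0 and 3 in MuRF1 -/-, 1 and 2 at 8 weeks in MuRF1 +/+, and none in MuRF1 -/-. Gpd1, of the glycerol phosphate shuttle, fell at 3 weeks in both genotypes (-0.62 ± 0.15 and -0.47 ± 0.15, adjusted p = 0.0062 and 0.026). Me3 (-1.16) and Pgd (-0.28) fell at 3 weeks in MuRF1 -/-. At 8 weeks in MuRF1 +/+ the mitochondrial carriers Slc25a12 (-0.72) and Slc25a11 (-0.46) fell and Mthfd2 rose (0.25). List medians were -0.12, -0.15, -0.32 and 0.05, the third being -0.07 without the array that stood apart. The list for de novo synthesis from tryptophan, which also holds kynurenine enzymes of other branches, was thinly measured, with 4 of 11 genes tested. Kyat1, a kynurenine aminotransferase, fell at 3 weeks in both genotypes (-0.48 and -0.39) and at 8 weeks in MuRF1 +/+ (-0.56), and Tdo2 rose at 3 weeks in MuRF1 -/- (0.45).

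Between 3 and 8 weeks of fenofibrate 16 of the 69 list genes changed in MuRF1 -/- hearts (23.2%, against 31.5% of all genes). Parp14 (-1.05 ± 0.16, adjusted p = 8.48e-05), Parp9 (-0.45), Cd38 (-0.48) and Sirt7 (-0.36) were lower at 8 than at 3 weeks, as were Tdo2 (-0.44), Nt5c (-0.59), Slc29a1 (-0.41) and Prkaa2 (-0.44). Me3 (1.38 ± 0.38, adjusted p = 0.0103), Idh2 (0.99), Noct (1.00), Kyat1 (0.59), Prkab1 (0.53), Slc25a51 (0.49) and Esrra (0.45) were higher. The part of the fibroblast and endothelial lists, which were lower over the same interval, was not tested. In MuRF1 +/+ hearts 10 of the 69 changed (14.5%, against 17.7%). Gpd1 (0.82 ± 0.15, adjusted p = 0.00102), Nt5e (0.73), Pparg (0.51) and Sirt1 (0.49) were higher at 8 than at 3 weeks. Slc25a13 (-0.79), Mdh1 (-0.59), Slc29a1 (-0.52), Slc25a12 (-0.44) and Sirt4 (-0.33) were lower. Without the array that stood apart, Pparg, Sirt1, Slc25a13, Mdh1, Slc25a12 and Sirt4 did not pass. Over the 5 lists and all comparisons there were 79 calls. With Y-linked level as a covariate 22 of the 79 remained, and with the 2 arrays that stood apart left out 64 remained.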

How the data were processed

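Heart RNA was labelled with Cy5 and the pup reference with Cy3 on each array per the channel labels, with no dye swap. The labelling protocol mentions Cy3 alone. The deposited scanner files hold spot intensity from Agilent Feature Extraction 9.5.3.1 (array design 014868), per the file headers. The deposited 0-or-1 flags mark spots well above background or outliers. Agilent's log10 ratio was deposited too, and per the file headers it is background-subtracted and dye-normalized. The authors' deposited table gives log2 values per array, made in a way not given in the sources at hand. Against the scanner ratios its columns had slopes of 0.832 to 0.968, with medians of -0.0060 to 0.0091, and correlated positively (r = 0.887 to 0.979 over probes) and so run in the same direction, while their exact scale and centring remain unknown from these files.

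Intensities were background-corrected by normexp (offset 50) and log2 ratios normalized by loess within arrays (limma 3.58.1, R 4.3.3). Outlier spots (105 to 423 per array) were treated as missing, and so were 6 non-control spots of 1 array whose background exceeded their signal by more than 50. Spots of a probe were averaged (43379 spots, 41174 probes). Names came from accessions and synonyms through a RefSeq table of GRCm38.p6 (22951 probes by accession, 6659 by current symbol, 3109 by synonym, 8455 kept as given). The probe brightest in the heart channel stood for its gene, which was tested if well above background on at least 3 arrays. No heart spot was saturated (0 on every array). All 20 arrays entered a single model with a mean per group (6 groups), moderated with eBayes (trended variance), 12 contrasts and Benjamini-Hochberg adjustment at 0.05 over all 14556 genes. This fit was tested on simulated data. The arrays came from 5 slides of 4, told apart by their scan, since the header of some arrays names another slide. The labels call the hearts biological replicates. The number of arrays limits the precision. Alternatives covered the background fit, the source of the ratio, filters, probe choice, slide, replicate number, array weights, Y-linked level and leaving arrays out.

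The members, lists and tests were chosen with earlier results of these data known. Genes named are all members, list genes past the threshold, the 5 most and 5 least correlated with Nmrk2, and the Trim63, PPAR alpha and sex-linked checks.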

Additional observations from a re-analysis of the deposited data

How the results depend on the processing

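The 12 counts of NAD genes called among the 8 were recomputed under 13 other settings and without each of the 20 arrays in turn, and the cause of the shifts below was not tested. Calls over all genes also moved across settings, over the ranges given below, so the shifts are not read as particular to the NAD genes. At 3 weeks against chow in MuRF1 +/+ the count of 2 became 0 when no spot was left out of the background fit (all spots), with Agilent's ratio, with the authors' deposited table and with the Y-linked covariate, and 6 with array weights. In MuRF1 -/- the count of 1 became 0 under those same first 4 settings and with only the groups compared in the fit, 2 with array weights and 3 without both arrays that stood apart. At 8 weeks against chow the count of 0 in MuRF1 +/+ became 1 with the heart channel alone, the mean of a gene's probes, slide as a block or both arrays left out, and 4 with array weights. In MuRF1 -/- it became 1 with only the groups compared, with array weights or without both arrays. From 3 to 8 weeks in MuRF1 +/+ the count of 1 became 0 with all spots, the heart channel alone, the deposited table, no filter, the slide block, only the groups compared, the Y-linked covariate or without both arrays, and 2 with array weights. In MuRF1 -/- the count of 3 became 0 with the Y-linked covariate. With array weights the counts of 0 became 3 between genotypes at 8 weeks, 1 averaged over diets and 1 for the difference of the 8-week responses. Leaving out single arrays gave 0 to 2 and 0 to 3 at 3 weeks against chow in MuRF1 +/+ and -/-, 0 to 1 and 0 to 0 at 8 weeks, 0 to 1 and 2 to 3 from 3 to 8 weeks, and 0 to 3 between genotypes at 8 weeks, with 0 in all other comparisons.

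Nmrk2 was lower on fenofibrate than on chow in all 4 comparisons under each of the 13 settings and without each array, with leave-one-out differences of -2.48 to -1.99 and -2.54 to -1.79 at 3 weeks and -2.85 to -2.33 and -3.26 to -2.51 at 8 weeks (MuRF1 +/+ and -/-). Array weights moved the MuRF1 +/+ difference at 8 weeks to -1.93. Signs turned only where the differences were small. The genotype difference of Nmrk2 on chow was -0.13 with all spots and -0.25 in the deposited table. At 8 weeks it was -0.31 with array weights, -0.089 with the Y-linked covariate and -0.067 without both arrays, and -0.067 to 0.43 without single arrays. From 3 to 8 weeks in MuRF1 +/+ it was 0.16 with array weights. The difference of the 8-week responses was 0.30 with all spots and 0.40 in the deposited table, and -0.68 to 0.074 without single arrays. That of the 3-week responses was -0.30 to 0.45.

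The replicate numbers did not pair the hearts. Deviations of 46 same-numbered pairs correlated at -0.58 to 0.45, and no 2 groups had every pair over 0.1. The replicate block left all 12 counts within 1.5 times, gave Nmrk2 differences of -2.09, -2.59, -1.96 and -2.83 (3 and 8 weeks in MuRF1 +/+, then MuRF1 -/-), and ended the calls of Nadk at 3 weeks in MuRF1 -/- (adjusted p = 0.0628) and of Nampt from 3 to 8 weeks in MuRF1 -/- (0.61, adjusted p = 0.0905). Calls over all genes ranged across settings from 374 to 6933 at 3 weeks in MuRF1 +/+ (3568 as reported) and from 59 to 6900 at 8 weeks (2159). In MuRF1 -/- they ranged from 472 to 5572 (3849) and from 85 to 1363 (325). From 3 to 8 weeks they ranged from 1014 to 6225 (2581) and from 2012 to 7187 (4586), and between genotypes at 3 and 8 weeks from 7 to 352 (59) and from 1 to 4068 (52). On chow and averaged over diets they were 9 to 36 (13) and 16 to 789 (28), and for the 3-week and 8-week response differences 0 to 16 and 0 to 2968 (0 in both). Signal over background limits Nmrk1, above background on 16 of 20 arrays, and Nmnat2.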
